A study of Mus musculus with 8 samples.

Results

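The 4 hearts whose sample titles carry the number 541 were compared with the 4 whose titles carry 569 or 570, which together make up the 8 hearts of the series. Membership was read from the titles alone, and no measured value entered the choice. The 541 hearts were KO 541 L1 and KO 541 L2, of genotype Dbh-/-, and WT 541 L3 and WT 541 L5, of genotype Dbh+/+. The others were KO 569 R2 and KO 569 R4, of genotype Dbh-/-, and WT 569 R3 and WT 570 R2, of genotype Dbh+/+. All 8 were whole mouse hearts at embryonic day E10.5, matched in age and size. Viability and heart rate had been checked in the living embryo by ultrasound just before dissection, and RNA from each heart was hybridised to its own Affymetrix 430A 2.0 array. Dbh encodes dopamine beta-hydroxylase, the enzyme that turns dopamine into noradrenaline. The labels do not say what the title numbers or letters stand for, and strain and sex were not given in the sources used here. Every 541 heart carries the letter L and every other heart the letter R, so number and letter cannot be told apart. The number 570 occurs on 1 heart only, and the whole 541 side carries 1 number. The p values below thus measure spread among hearts, not among title numbers. Each side held 2 hearts of each genotype, and genotype was a term in the limma fits of both genotypes unless stated. The exact permutation tests of array measures and the unequal-variance test per probe set had no genotype term.

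At this stage the heart is a looped tube that pumps while its chambers form. Its myocardium makes sarcomeres, the actin and myosin arrays that troponins and tropomyosin gate with calcium, and sarcoplasmic reticulum proteins begin to handle that calcium. The blood inside it consists mostly of primitive red cells from the yolk sac, which carry embryonic globins and mature together as a cohort. Liver bud, foregut and pharyngeal arches, with their neural crest and Hox-expressing mesenchyme, lie next to the heart, so lists of their marker genes were measured in every heart too. In RNA from a whole heart, fewer cells of a type and less RNA per cell cannot be told apart.

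Between 14805 and 16248 probe sets were called Present per array, which is 65.2 to 71.6%. The heart label held for all 8 samples: Myl7, Tnnt2 and Actc1, which encode myocardial sarcomere proteins, had normalized signals between 3750.1 and 6292. Signals below are normalized signals, that is, array signals after quantile normalization of log2(signal + 16), turned back to the linear scale. Differences are on the log2(signal + 16) scale, 541 minus 569 and 570, with a standard error, and they understate the change of dim genes. Hearts are listed in the order KO 541 L1, KO 541 L2, WT 541 L3, WT 541 L5, then KO 569 R2, KO 569 R4, WT 569 R3, WT 570 R2. Dbh was called Present on 0 of 8 arrays, with deposited signals of 0.22 to 10.9, so it could not serve as a check of the genotype labels. The Y-linked gene Eif2s3y had signals of 1155, 0.39, 0.66 and 1659.8 in the 541 hearts, against 1603, 3.22, 4.99 and 1321 in the 569 and 570 hearts. It was thus high in 2 hearts on each side, 1 of each genotype.

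The 541 hearts differed from the 569 and 570 hearts in 501 of 16292 tested probe sets (3.08%), at an adjusted p under 0.05 from limma with Benjamini-Hochberg adjustment. Of these, 271 were higher (1.66%) and 230 lower (1.41%) in the 541 hearts. With the arrays only centred on their medians instead of quantile normalized, 206 were higher and 356 lower, so the share of higher calls was 36.7% in place of 54.1%. With the signals as deposited, 298 were higher and 182 lower, or 62.1% higher, and 186 of the 501 calls were shared. The median difference over all tested probe sets was -0.01, -0.05 with the deposited signals and -0.04 with median centring. In the same fit, genotype gave 0 calls by limma, with 647 probe sets at an unadjusted p under 0.05, against 3519 (21.6%) for the title number. All 501 called probe sets had the same direction within the KO hearts as within the WT hearts. The tested difference averages both genotypes, and disagreement between them adds to its error. Calling thus favours a shared direction, and this count is no separate support.

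The called probe sets represented 164 genes that were higher (1.8% of 9126) and 146 that were lower (1.6%), each gene taken by its brightest tested probe set. The 541 and other hearts did not overlap in 118 of the higher genes and in 141 of the lower genes. Calling by p favours genes without overlap, so these counts, and the lack of overlap given for called genes below, are no separate support. Over all tested genes, 6.07% were higher without overlap and 8.08% lower without overlap, and 10.6% were higher and 12.1% lower at an unadjusted p under 0.05. Where the higher genes overlapped, in 46 genes, WT 541 L5 was the lowest 541 heart in 43 and KO 569 R4 was the highest other heart in 43. The number of calls rested on single hearts. It was 3029 without WT 541 L5, including all 501, and 133 without WT 541 L3. Without KO 569 R4 it was 103, and without any 1 of the other 5 hearts it lay between 1 and 29.

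The 541 hearts were also less alike. Over tested probe sets, pairs of 541 hearts correlated at r = 0.953 to 0.985, pairs of 569 and 570 hearts at 0.982 to 0.988, and pairs across the sides at 0.959 to 0.976 (Pearson, given as a description). On the first principal component, which carried 40.8% of the variance, KO 541 L1, KO 541 L2 and WT 541 L3 lay at 33.92, 30.49 and 35.1. WT 541 L5 lay at -23.36, among the 569 and 570 hearts, which spanned -27.55 to -12.78. WT 541 L5 stood apart on the second component (20.2% of the variance), at -42.41. So 3 of the 541 hearts formed one end of the main axis, and the remaining 541 heart did not join them there. Counts of calls that change when 1 of these hearts is left out are given beside the list they belong to.

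**Figure D1:**
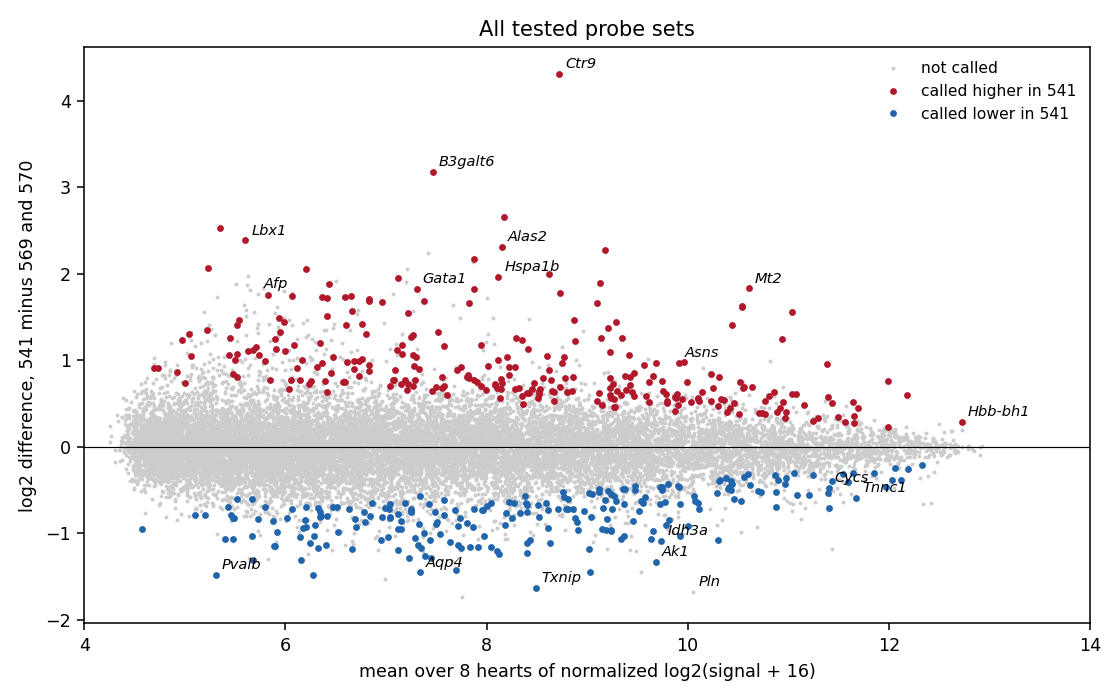
Log2 difference of each of 16292 tested probe sets (541 hearts minus 569 and 570 hearts, genotype in the fit) against its mean normalized log2(signal + 16) over 8 hearts. Red marks the 271 probe sets called higher and blue the 230 called lower in the 541 hearts. Called points lie on both sides of 0 at every brightness, and Ctr9, at 4.31, lies highest.

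Red blood cell genes gave more calls higher in the 541 hearts than any other list measured: 16 of 32 tested list members were called higher and 0 lower, against 1.8% of all tested genes called higher. Of the 32, 31 had a positive difference, against 48.3% of all genes, and the median was 0.86, against -0.01 over all genes. In 4 of the 32 the 541 hearts were higher without overlap, against 6.07% of all tested genes. The list's mean level, centred over the 8 hearts, was 0.82, 0.61, 0.46 and 0.01 in the 541 hearts, against -0.57, 0.21, -0.84 and -0.70 in the 569 and 570 hearts. WT 541 L5 thus lay below KO 569 R4, and the 2 sides overlapped. Without WT 541 L5, 26 members were called, and without WT 541 L3, 4. Without KO 569 R4 there were 14 calls and without any 1 of the remaining 5 hearts 0, while the median stayed between 0.68 and 1.02 and 28 or 29 members had an unadjusted p under 0.05.

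Globins, the oxygen carriers, were among the brightest transcripts and had small differences on this scale. Hbb-bh1, an embryonic beta-like globin, had signals of 7606, 7436, 7716 and 7104 in the 541 hearts, against 6149, 6893, 5686 and 5844 in the 569 and 570 hearts. The sides did not overlap (log2 difference 0.28 ± 0.05, adjusted p = 0.0305). Hba-x, the embryonic zeta globin, had 5817, 6032, 5817 and 5105 in the 541 hearts, against 4225, 5372, 2785 and 3164 in the 569 and 570 hearts. KO 569 R4 lay above WT 541 L5, and the difference passed (log2 difference 0.59 ± 0.12, adjusted p = 0.0369). For Hbb-y, the embryonic epsilon-like globin, the signals were 8051, 7006, 7006 and 6893 in the 541 hearts, against 6514, 7104, 5753 and 5959 in the 569 and 570 hearts. They overlapped, and the difference did not pass (log2 difference 0.19 ± 0.05, adjusted p = 0.079).

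Genes of iron uptake and haem synthesis included the widest difference of the red cell list. Alas2, the red cell form of the first and rate-limiting enzyme of haem synthesis, had signals of 1068, 705, 597 and 316 in the 541 hearts, against 100.5, 349.7, 47.8 and 81.7 in the 569 and 570 hearts. KO 569 R4 lay above WT 541 L5 by a small margin, and Alas2 was higher in the 541 hearts by 4.95-fold (log2 difference 2.31 ± 0.35, adjusted p = 0.0185). Slc25a37, mitoferrin, which brings iron into mitochondria, had 1111, 1099.7, 984 and 805 in the 541 hearts, against 384, 867, 224 and 361 in the 569 and 570 hearts. Urod, which decarboxylates uroporphyrinogen, had 1309, 1089.9, 816 and 546 in the 541 hearts, against 466, 706, 473 and 416 in the 569 and 570 hearts. Both were higher in the 541 hearts, at log2 difference 1.25 ± 0.26, adjusted p = 0.0379 for Slc25a37 and log2 difference 0.80 ± 0.18, adjusted p = 0.0471 for Urod. In both, KO 569 R4 lay above WT 541 L5, so the sides overlapped. Fech, which inserts iron into the haem ring, had 2696, 2032, 1813 and 1267 in the 541 hearts, against 1028, 1686, 941 and 945 in the 569 and 570 hearts. It too was higher, with the same overlap (log2 difference 0.75 ± 0.17, adjusted p = 0.0471). Tfrc, the transferrin receptor through which cells take up iron, had 3821, 3649, 3769.6 and 4163 in the 541 hearts, against 2776, 3066, 2533 and 2915 in the 569 and 570 hearts. It did not overlap (log2 difference 0.45 ± 0.07, adjusted p = 0.0217), and WT 541 L5 had the highest signal of all.

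Transcription factors of the erythroid programme were among the calls. Gata1, the master factor of red cell and platelet lineages, had signals of 431, 348, 294 and 141 in the 541 hearts, against 77.8, 155, 40.1 and 39.0 in the 569 and 570 hearts. Klf1, which activates globin and membrane genes, had 318, 206, 157 and 60.6 in the 541 hearts, against 46.7, 122, 36.5 and 25.9 in the 569 and 570 hearts. In both, WT 541 L5 was the lowest 541 heart and overlapped KO 569 R4. Gata1 was higher in the 541 hearts (log2 difference 1.83 ± 0.25, adjusted p = 0.0151), as was Klf1 (log2 difference 1.42 ± 0.31, adjusted p = 0.0429). Gfi1b, a repressor needed for red cells and megakaryocytes, had 111, 106, 60.8 and 76.0 in the 541 hearts, against 18.4, 45.5, 13.5 and 12.6 in the 569 and 570 hearts. Its sides did not overlap (log2 difference 1.49 ± 0.19, adjusted p = 0.0129).

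Several membrane and surface genes of red cells were called higher as well. Kel, which carries the Kell blood group antigen, had signals of 183, 169, 130.1 and 76.8 in the 541 hearts, against 33.7, 75.5, 10.8 and 18 in the 569 and 570 hearts. The lowest 541 heart, WT 541 L5, and the highest other heart, KO 569 R4, differed by little, without overlap (log2 difference 1.73 ± 0.23, adjusted p = 0.0142). Ermap, an erythroid surface protein, had 1076, 915, 787 and 448 in the 541 hearts, against 228, 582, 95.1 and 152 in the 569 and 570 hearts. Epb42, the band 4.2 protein of the membrane skeleton, had 212, 183, 176 and 116 in the 541 hearts, against 35.6, 121, 14 and 27.7 in the 569 and 570 hearts. In Ermap and Epb42 the KO 569 R4 value exceeded that of WT 541 L5, and both passed (log2 difference 1.78 ± 0.31, adjusted p = 0.0246 for Ermap, log2 difference 1.74 ± 0.31, adjusted p = 0.0271 for Epb42). The second tested probe set of Epb42 differed by 0.25 and was not called. Slc4a1, the band 3 anion exchanger, had 3448, 3116, 2797 and 2713 in the 541 hearts, against 1100.5, 2798, 716 and 1137 in the 569 and 570 hearts. KO 569 R4 was here nearly level with WT 541 L3, and the difference passed (log2 difference 1.24 ± 0.27, adjusted p = 0.0424). Slc14a1, the urea transporter of red cells, had 158, 136, 158 and 32.5 in the 541 hearts, against 32.8, 35.7, 6.21 and 15.5 in the 569 and 570 hearts. Pklr, the pyruvate kinase of liver and red cells, had 1750.4, 1262, 1128 and 503 in the 541 hearts, against 249, 848, 177 and 143 in the 569 and 570 hearts. Slc14a1 and Pklr were higher by 1.74 ± 0.33 and 1.89 ± 0.36 on the log2 scale, with an adjusted p of 0.0305 each. For both genes KO 569 R4 lay above WT 541 L5. Csf2rb, the shared beta chain of the receptors for interleukin 3, interleukin 5 and granulocyte-macrophage factor, had 214, 161, 143 and 63.3 in the 541 hearts, against 12.1, 36.9, 16 and 19.6 in the 569 and 570 hearts. It was higher without overlap (log2 difference 2.06 ± 0.28, adjusted p = 0.0142). Csf2rb, Gfi1b, Slc14a1 and Pklr were no members of the red cell list and were named for their size or p.

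RefSeq promoter windows of the red cell genes were searched because so many of these genes were called together. Those printed were taken from the windows that held the motif marked below. The windows are the 250 bases before the gene's start in build GRCm38.p6, 5′ to 3′ on the gene's strand. Capitals mark matches to GATAA on either strand (TTATC), the core letters that GATA factors recognise. The windows are those of Kel (chr6:41704326-41704575, minus strand), Alas2 (chrX:150547167-150547416, plus strand), Hba-x (chr11:32276350-32276599, plus strand) and Klf1 (chr8:84901732-84901981, plus strand).
Kel: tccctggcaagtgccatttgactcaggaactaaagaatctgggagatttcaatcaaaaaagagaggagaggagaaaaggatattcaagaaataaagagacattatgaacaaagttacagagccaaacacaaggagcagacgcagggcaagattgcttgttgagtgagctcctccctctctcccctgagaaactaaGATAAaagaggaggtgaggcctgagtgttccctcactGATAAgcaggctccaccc
Alas2: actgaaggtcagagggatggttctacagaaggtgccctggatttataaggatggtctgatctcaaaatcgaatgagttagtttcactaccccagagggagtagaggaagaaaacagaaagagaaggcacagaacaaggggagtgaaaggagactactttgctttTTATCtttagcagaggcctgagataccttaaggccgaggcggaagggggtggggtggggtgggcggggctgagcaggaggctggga
Hba-x: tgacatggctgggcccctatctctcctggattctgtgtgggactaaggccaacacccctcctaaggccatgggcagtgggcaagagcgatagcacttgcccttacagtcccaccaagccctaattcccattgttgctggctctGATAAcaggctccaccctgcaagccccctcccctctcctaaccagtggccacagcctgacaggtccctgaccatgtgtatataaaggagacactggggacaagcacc
Klf1: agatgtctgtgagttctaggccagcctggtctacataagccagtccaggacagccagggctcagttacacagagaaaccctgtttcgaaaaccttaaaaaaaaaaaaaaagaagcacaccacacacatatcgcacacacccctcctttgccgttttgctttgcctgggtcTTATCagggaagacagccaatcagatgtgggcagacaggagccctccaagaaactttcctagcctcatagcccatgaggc
The Kel window held 2 matches, 55 and 18 bases before the start, and each of the other windows printed held 1. Of the 16 called red cell genes, 12 had a window, and 8 of the 12 held the motif. Of 25 tested red cell genes with a window, called or not, 17 held it, and 22.6% of all 32851 windows did. Gata1 and Tfrc were among the called genes with 0 matches in these letters. A match is a run of letters and not a shown binding site.

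**Figure D2:**
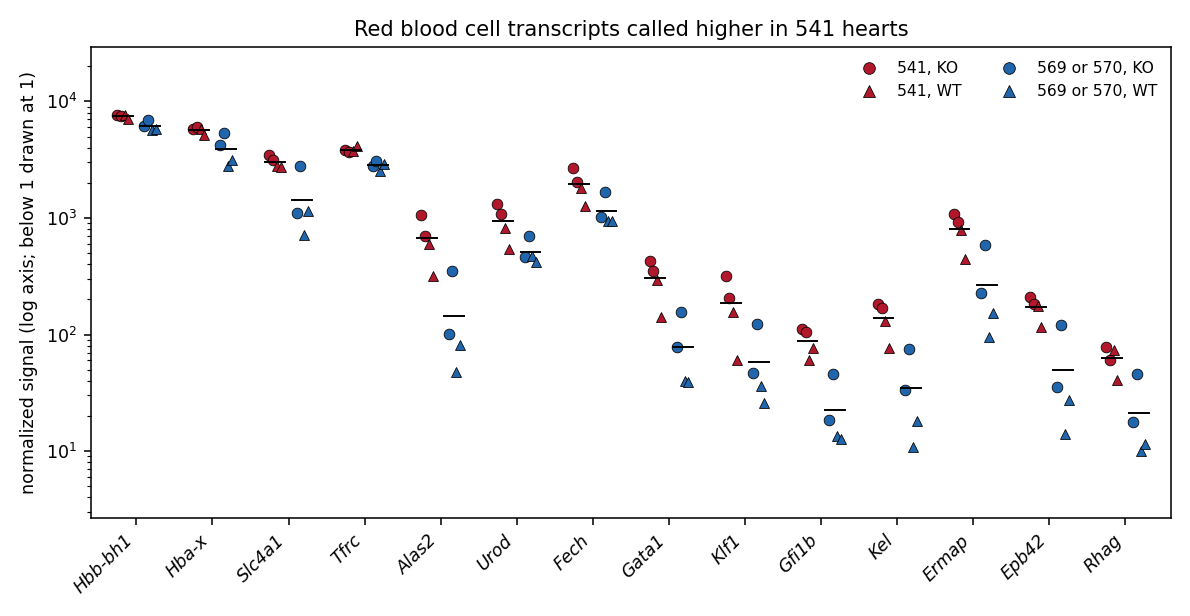
Normalized signal (log axis) of 14 red cell transcripts in each heart, 541 hearts in red on the left and 569 and 570 hearts in blue on the right of each gene, circles for KO and triangles for WT, with bars at the group means. WT 541 L5 is the lowest red point for most genes and KO 569 R4 the highest blue point, and for Alas2 they lie at 316 and 349.7.

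The number of calls among other blood lineages changed with the hearts included. Of 6 tested megakaryocyte and platelet genes, 0 were called by limma, although all 6 had positive differences (median 0.82) and 4 had an unadjusted p under 0.05. Leaving out WT 541 L5 gave 5 calls, leaving out any 1 of the other hearts 0, and the deposited signals gave 4. Pf4, platelet factor 4, had signals of 605, 499, 706 and 158 in the 541 hearts, against 184, 198, 77.7 and 143 in the 569 and 570 hearts. WT 541 L5 lay inside the range of the other hearts, and the adjusted p was 0.0593. Of 15 tested macrophage and leukocyte genes, 1 was called higher and 0 lower (median 0.64, and 0.24 without WT 541 L3), against 1.8% of all tested genes called higher. Leaving out WT 541 L5 gave 6 calls higher and 2 lower, leaving out any 1 of the other hearts 0, and the deposited signals gave 5 higher and 1 lower. The gene called with all 8 hearts was Csf1r, the receptor for macrophage colony-stimulating factor, at 82.9, 38.7, 64.5 and 47.2 in the 541 hearts, against 17.2, 31.7, 10.1 and 15.5 in the 569 and 570 hearts. It did not overlap (log2 difference 1.10 ± 0.23, adjusted p = 0.0384). Coro1a, an actin-binding protein of leukocytes, had 283, 165, 317 and 45.1 in the 541 hearts, against 40.9, 78.3, 37.8 and 31.1 in the 569 and 570 hearts and did not pass (adjusted p = 0.0776). Lyz1, a lysozyme, ran the other way at 97.2, 84.7, 43.4 and 17.9 in the 541 hearts, against 156, 142, 167 and 87.8 in the 569 and 570 hearts, with an adjusted p of 0.0563. The complement genes C1qa and C1qc were called Present on 0 arrays, while C1qb, of the same list, was among those tested.

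Sarcomere genes were lower in the 541 hearts. Of 25 tested members, 8 were called lower and 0 higher, against 1.6% of all tested genes called lower, and all 25 differences were negative (median -0.72). The list level was -0.29, -0.36, -0.95 and 0.15 in the 541 hearts, against 0.44, 0.36, 0.32 and 0.34 in the 569 and 570 hearts. The sides did not overlap, WT 541 L3 was far lowest and WT 541 L5 lay nearest the others. Without WT 541 L3 the median was -0.44 with 5 calls, and without WT 541 L5 it was -1.0 with 25 calls. Without KO 569 R4 1 call was left, and without any 1 of the remaining 5 hearts 0.

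The troponin complex, which makes contraction depend on calcium, gave 3 of the calls. Tnni1, the slow skeletal troponin I that the embryonic heart uses, had signals of 909, 897, 585 and 1100.0 in the 541 hearts, against 1949, 1776, 1717 and 1839.6 in the 569 and 570 hearts (log2 difference -1.08 ± 0.16, adjusted p = 0.0183). Tnnt1, slow skeletal troponin T, had 211, 310.3, 165 and 221 in the 541 hearts, against 522, 515, 401 and 515 in the 569 and 570 hearts. It was lower by a like amount (log2 difference -1.08 ± 0.16, adjusted p = 0.0184). Tnnc1, the calcium-binding subunit of cardiac and slow muscle, had 2563, 2640.0, 2126 and 3434 in the 541 hearts, against 3959.7, 3888, 4218 and 3938 in the 569 and 570 hearts (log2 difference -0.59 ± 0.12, adjusted p = 0.0381). None of the 3 overlapped. Tnnt2, cardiac troponin T, had 4112, 4553, 3811 and 5629 in the 541 hearts, against 5832, 5711, 5384 and 6013 in the 569 and 570 hearts. It did not pass (adjusted p = 0.09).

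Structural and assembly proteins made up most of the remaining sarcomere calls. Des, the intermediate filament desmin that links Z discs, had 158, 173, 71.2 and 174 in the 541 hearts, against 388, 335, 271 and 314 in the 569 and 570 hearts (log2 difference -1.16 ± 0.22, adjusted p = 0.031). Tcap, the titin cap, had 61.3, 61.3, 20.1 and 79.0 in the 541 hearts, against 159, 133, 122 and 137 in the 569 and 570 hearts (log2 difference -1.19 ± 0.26, adjusted p = 0.0439). In Des and Tcap WT 541 L3 lay far below the remaining 541 hearts. Xirp1, an actin-binding protein of the intercalated disc, had 152, 132, 110.2 and 157 in the 541 hearts, against 295, 253, 259 and 283 in the 569 and 570 hearts (log2 difference -0.91 ± 0.15, adjusted p = 0.0204). Smyd1, a methyltransferase and myosin chaperone of heart and skeletal muscle, had 33.6, 39.5, 21.8 and 41.4 in the 541 hearts, against 96.3, 85.7, 68.5 and 94.4 in the 569 and 570 hearts (log2 difference -1.04 ± 0.17, adjusted p = 0.0222). It was called Present in 2 of 4 541 hearts and in all 4 others. Myh6, the alpha myosin heavy chain, had 3407, 2614, 3453 and 4346 in the 541 hearts, against 4553, 4438, 4547 and 5292 in the 569 and 570 hearts. The gap was small and the sides did not overlap (log2 difference -0.46 ± 0.11, adjusted p = 0.0482). Csrp3, a Z disc protein, had 1789, 1932, 1536 and 2717 in the 541 hearts, against 3277, 3163, 2915 and 2866 in the 569 and 570 hearts and just missed (adjusted p = 0.0517). Actc1, cardiac alpha actin, had 4231, 4051, 3750.1 and 5082 in the 541 hearts, against 5153, 5210.1, 5009 and 4998 in the 569 and 570 hearts and did not pass (adjusted p = 0.111).

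Of the genes called lower, several are best known from skeletal muscle. They belong to no list, were named for their size or p, and make no count. The list of branchial and skeletal muscle genes that was measured had 0 calls among 7 tested, with 6 differences positive and a median of 0.29. Mylpf, the fast skeletal regulatory light chain, had 91.6, 117, 80.0 and 97.0 in the 541 hearts, against 258, 266, 287 and 216 in the 569 and 570 hearts (log2 difference -1.28 ± 0.15, adjusted p = 0.0113). Tnni2, fast skeletal troponin I, had 72.9, 77.1, 66.9 and 88.0 in the 541 hearts, against 215, 232, 162 and 174 in the 569 and 570 hearts (log2 difference -1.19 ± 0.15, adjusted p = 0.0129). Pvalb, the calcium buffer parvalbumin, had 13.6, 0.78, 10.7 and 7.94 in the 541 hearts, against 47.9, 43.7, 61.3 and 50.0 in the 569 and 570 hearts (log2 difference -1.49 ± 0.19, adjusted p = 0.0129). It was called Present in 1 of 4 541 hearts and in 4 of 4 others. Pgam2, the muscle phosphoglycerate mutase, had 328, 424, 227 and 368 in the 541 hearts, against 1024, 761, 585 and 756 in the 569 and 570 hearts (log2 difference -1.18 ± 0.18, adjusted p = 0.0183). In these 4 genes WT 541 L5 lay with the 541 hearts and the sides did not overlap. Ak1, adenylate kinase, which balances adenine nucleotides in muscle, had 468, 641, 356 and 595 in the 541 hearts, against 1302, 1189, 1250.1 and 1425 in the 569 and 570 hearts (log2 difference -1.33 ± 0.17, adjusted p = 0.0129). Its second tested probe set differed by -0.09. Hspb3, a small heat shock protein of muscle, had 108, 115, 73.0 and 159.7 in the 541 hearts, against 339, 292, 368 and 303 in the 569 and 570 hearts (log2 difference -1.43 ± 0.20, adjusted p = 0.0165). Itgb1bp2, melusin, a muscle protein that binds integrin, had 172, 136, 151 and 210.2 in the 541 hearts, against 373, 388, 494 and 398 in the 569 and 570 hearts (log2 difference -1.23 ± 0.15, adjusted p = 0.0126). All 4 541 hearts lay below all others for Ak1, Hspb3 and Itgb1bp2.

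The myogenic factors Myog and Myf5 of skeletal muscle did not show this direction. Myog had 35.3, 36.7, 21.7 and 6.92 in the 541 hearts, against 2.34, 6.35, 6.46 and 0.96 in the 569 and 570 hearts, with a difference of 0.98 and an adjusted p of 0.052. Myf5 had 30.4, 40.0, 32.1 and 0.23 in the 541 hearts, against 6.43, 8.73, 5.72 and 4.48 in the 569 and 570 hearts, with an adjusted p of 0.192. The calls lower also held 3 contractile genes best known from smooth muscle. Myl9, a regulatory light chain of smooth muscle, had 2103, 1919, 1886 and 2563 in the 541 hearts, against 3542, 3511, 3460.5 and 3279 in the 569 and 570 hearts (log2 difference -0.71 ± 0.10, adjusted p = 0.0145). Cnn1, calponin, had 116, 88.0, 76.5 and 135 in the 541 hearts, against 217, 213, 207 and 238 in the 569 and 570 hearts (log2 difference -1.0 ± 0.18, adjusted p = 0.0252), and Tagln, transgelin, had 1138, 1145, 885 and 1421 in the 541 hearts, against 1693, 1631, 1833 and 1741 in the 569 and 570 hearts (log2 difference -0.60 ± 0.13, adjusted p = 0.0429). None of these overlapped, and Cnn1 and Tagln were named after their values were seen.

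Calcium handling genes gave 3 calls lower and 0 higher among 12 tested (median -0.72), against 1.6% of all tested genes called lower. There were 10 calls without WT 541 L5, 1 without WT 541 L3 and 0 without any 1 of the other hearts. Casq2, cardiac calsequestrin, which stores calcium in the sarcoplasmic reticulum, had 71.6, 109, 57.9 and 80.6 in the 541 hearts, against 183, 161, 119 and 139.6 in the 569 and 570 hearts (log2 difference -0.81 ± 0.17, adjusted p = 0.0374). Casq1, the skeletal calsequestrin, had 422, 273, 371 and 685 in the 541 hearts, against 873, 763, 849.6 and 835 in the 569 and 570 hearts (log2 difference -0.97 ± 0.21, adjusted p = 0.0424). Cacna1d, an L-type calcium channel subunit of pacemaker and atrial cells, had 565, 504, 473 and 685 in the 541 hearts, against 880.4, 771, 879 and 1272 in the 569 and 570 hearts (log2 difference -0.74 ± 0.16, adjusted p = 0.0421). The sides were separate for all 3. Atp2a2, the pump that refills the store, had 3605, 3727, 3901 and 4265 in the 541 hearts, against 4004, 3679.8, 4018 and 3758 in the 569 and 570 hearts and a difference of 0.00 ± 0.06. Its 4 tested probe sets ranged from -0.56 to 0.00. Pln, phospholamban, which restrains that pump, had 895, 1016, 97.3 and 1144 in the 541 hearts, against 2117, 2194, 1785 and 1510.4 in the 569 and 570 hearts. Its difference was -1.68, WT 541 L3 lay far below the rest, and the adjusted p was 0.123.

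Ventricle genes gave 2 calls lower and 0 higher among 11 tested, against 1.6% of all tested genes called lower. The median was -0.84, and -0.39 with 3 calls without WT 541 L3. There were 10 calls without WT 541 L5, 8 with the deposited signals and 0 without any 1 of the remaining 6 hearts. Myh7, the beta myosin heavy chain, showed that heart alone: it had 3035, 3097, 292 and 3837 in the 541 hearts, against 4299, 4125, 3764 and 4429 in the 569 and 570 hearts (adjusted p = 0.311). Myl2, the ventricular regulatory light chain, had 5578, 5948, 1678 and 6388 in the 541 hearts, against 6961, 6672, 6799 and 6893 in the 569 and 570 hearts (adjusted p = 0.295). Irx4, a ventricle-restricted transcription factor, had 53.6, 59.9, 7.19 and 77.6 in the 541 hearts, against 111, 113, 105 and 143 in the 569 and 570 hearts (adjusted p = 0.0984). WT 541 L3 was thus low in all 3, while the other 541 hearts lay near the 569 and 570 hearts for Myh7 and Myl2. The 2 called genes did not depend on WT 541 L3 for their lack of overlap. Cited1, a transcriptional co-regulator of trabecular myocardium, had 266, 254, 105 and 285 in the 541 hearts, against 552, 499, 459 and 422 in the 569 and 570 hearts (log2 difference -1.11 ± 0.24, adjusted p = 0.0429). Lbh, a co-regulator of limb bud and heart, had 558, 652, 296 and 744 in the 541 hearts, against 1108, 1076, 1245 and 1121 in the 569 and 570 hearts (log2 difference -1.07 ± 0.24, adjusted p = 0.045). Of 13 tested atrial and sinus venosus genes, 0 were called (median -0.29). At an unadjusted p under 0.05, 4 were lower and 1 higher, against 12.1% and 10.6% of all tested genes. The atrial median was -0.11 without WT 541 L3, and without WT 541 L5 there were 5 calls lower and 2 higher. Myl7, the atrial light chain, had 4774, 4919.9, 4469 and 6191 in the 541 hearts, against 6191, 6292, 6149 and 6149 in the 569 and 570 hearts (adjusted p = 0.0896).

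Of all tested genes, 1.6% were called lower and 12.1% were lower at an unadjusted p under 0.05. Against these shares, cardiac transcription factors gave 1 call among 15 tested (median -0.51, 9 with an unadjusted p under 0.05, all lower). Left without WT 541 L5, the list had 8 calls, all lower, and 0 without any 1 of the other hearts. Mef2c, which drives muscle genes, had 1172, 1349, 1392 and 1722 in the 541 hearts, against 2212, 1861, 1933 and 2077 in the 569 and 570 hearts (log2 difference -0.53 ± 0.11, adjusted p = 0.039). Nkx2-5, an early cardiac homeodomain factor, had 29.7, 30.1, 17 and 36.1 in the 541 hearts, against 68.2, 50.6, 55.3 and 44.6 in the 569 and 570 hearts (adjusted p = 0.0676). Gata5, of the endocardium and early heart, had 128, 81.6, 100.1 and 113 in the 541 hearts, against 152, 164, 227 and 174 in the 569 and 570 hearts (adjusted p = 0.0594). Tbx20, a T-box repressor of the chambers, had 2104, 2246, 1679.9 and 3135 in the 541 hearts, against 3255, 3303, 3252 and 3320.1 in the 569 and 570 hearts (adjusted p = 0.0765). None of the 4 overlapped between the sides. Endothelial and endocardial genes gave 1 call among 22 (median -0.18): Nfatc1, the endocardial factor of the valves, had 371, 349, 305 and 528 in the 541 hearts, against 759.6, 651, 603 and 725 in the 569 and 570 hearts (log2 difference -0.82 ± 0.17, adjusted p = 0.039). Epicardial genes gave 0 calls among 9 (median -0.16), and cushion mesenchyme genes 0 among 18 (median 0.05). In the epicardial list 0 genes had an unadjusted p under 0.05, and in the cushion list 4 were lower and 1 higher at such a p. The cushion median was -0.04 with median centring. Leaving out WT 541 L5 gave 5 calls lower and 2 higher for endothelium and 1 lower for epicardium. It gave 3 lower and 6 higher for cushion mesenchyme and 7 lower and 3 higher for matrix genes. That fit called 1603 of all 16292 tested probe sets lower and 1426 higher. Hapln1, which links hyaluronan to proteoglycans in cardiac jelly, was the call among 29 matrix genes, at 149.7, 110.4, 105 and 248 in the 541 hearts, against 392, 330.4, 314 and 345 in the 569 and 570 hearts (log2 difference -1.16 ± 0.24, adjusted p = 0.037).

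**Figure D3:**
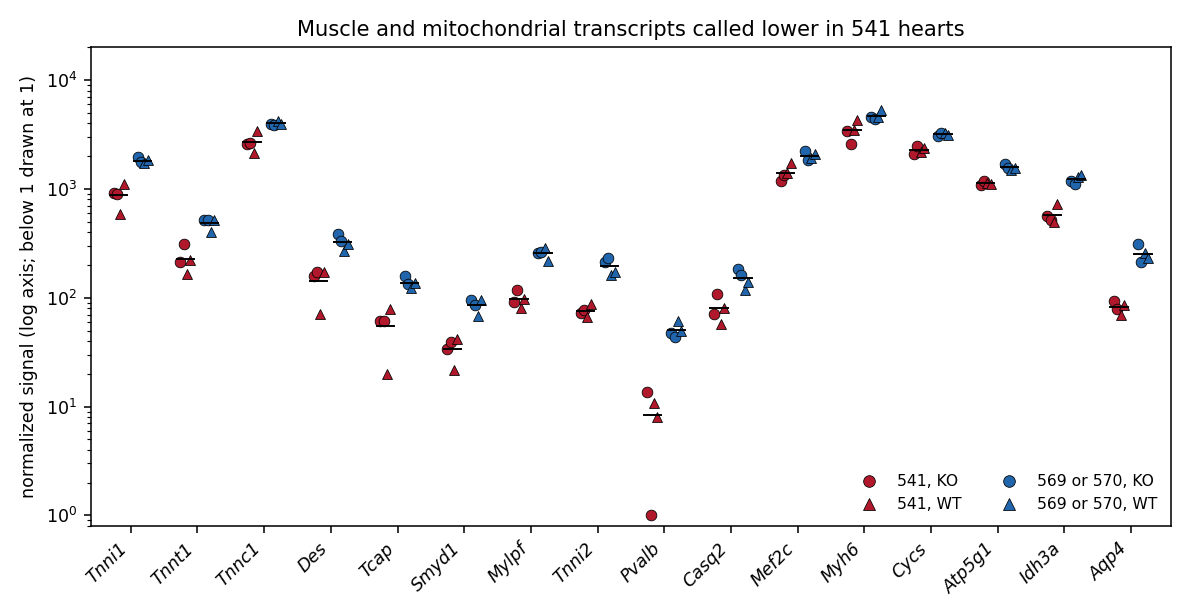
Normalized signal (log axis, values under 1 drawn at 1) of 16 muscle and mitochondrial transcripts in each heart, drawn as for the red cell genes, with bars at the group means. For each gene the red 541 points lie below the blue points, and WT 541 L3 is the lowest for Des, at 71.2, and Tcap, at 20.1.

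Mitochondrial respiration genes were lower by small amounts. Of 63 tested oxidative phosphorylation genes, 11 were called lower and 0 higher, against 1.6% of all tested genes called lower. Differences were negative in 60 and positive in 3, against 48.3% of all genes positive, with a median of -0.21. With the deposited signals the median was -0.33 with 2 calls, and with median centring -0.31 with 13. Cycs, cytochrome c, had 2106, 2458, 2197 and 2401 in the 541 hearts, against 3055, 3240.1, 3274 and 3145 in the 569 and 570 hearts (log2 difference -0.47 ± 0.07, adjusted p = 0.0165). Atp5g1, a subunit of the proton ring of ATP synthase, had 1096, 1192, 1130.3 and 1102 in the 541 hearts, against 1704, 1571, 1504 and 1568 in the 569 and 570 hearts (log2 difference -0.48 ± 0.08, adjusted p = 0.0204). Sdhb and Sdhc belong to complex II, and Sdhb had 478, 491, 350.3 and 359.8 in the 541 hearts, against 663, 595, 582 and 600.0 in the 569 and 570 hearts (log2 difference -0.54 ± 0.12, adjusted p = 0.0429). Ndufa8 of complex I had 559, 617, 563 and 589 in the 541 hearts, against 896, 791, 774 and 861 in the 569 and 570 hearts (log2 difference -0.50 ± 0.10, adjusted p = 0.037). Cox5a of complex IV had 1666, 1600.3, 1497 and 1883 in the 541 hearts, against 2219, 2152, 2148 and 2140.1 in the 569 and 570 hearts (log2 difference -0.38 ± 0.08, adjusted p = 0.0426). The 5 genes given here lay lower in every 541 heart than in any other, and the 11 calls included genes of each of complexes I to V. Idh3a, a subunit of the citrate cycle's isocitrate dehydrogenase, was no list member and had 569.5, 519, 492 and 727 in the 541 hearts, against 1181, 1113, 1274 and 1357 in the 569 and 570 hearts (log2 difference -1.08 ± 0.13, adjusted p = 0.0113). Without WT 541 L5, 30 of the 63 were called lower, without WT 541 L3, 2, and without any 1 of the remaining 6 hearts, 0. Of 17 glycolysis genes, 0 were called (median -0.13), and 4 had an unadjusted p under 0.05, all lower. Leaving out WT 541 L5 gave 9 glycolysis calls, all lower.

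Atf4 and 3 genes of amino acid supply were higher in the 541 hearts. Of 20 tested members of the stress and unfolded protein list, 4 were called higher and 0 lower (median 0.50), against 1.8% of all tested genes called higher, and 9 were higher and 3 lower at an unadjusted p under 0.05. Atf4, the factor that drives the response, had 1411, 1215, 1301 and 1655 in the 541 hearts, against 654, 939.7, 641 and 587 in the 569 and 570 hearts (log2 difference 0.98 ± 0.16, adjusted p = 0.0197). Asns, asparagine synthetase, had 1396, 1276, 1452 and 1226 in the 541 hearts, against 725, 919, 564 and 548 in the 569 and 570 hearts (log2 difference 0.97 ± 0.14, adjusted p = 0.0165). Psat1, of serine synthesis, had 2204, 1862, 2676 and 2051 in the 541 hearts, against 1278, 1396, 1734 and 1409.7 in the 569 and 570 hearts (log2 difference 0.59 ± 0.11, adjusted p = 0.0286). Slc3a2, the heavy chain of amino acid exchangers, had 599.8, 496, 509 and 561 in the 541 hearts, against 373, 395, 313 and 299 in the 569 and 570 hearts (log2 difference 0.63 ± 0.12, adjusted p = 0.0331). None of the 4 overlapped. Ddit3, a later and proapoptotic factor of the response, had 91.1, 80.2, 67.2 and 268 in the 541 hearts, against 52.7, 50.0, 42.5 and 23.6 in the 569 and 570 hearts, with WT 541 L5 far above the rest and an adjusted p of 0.109. Atf5 and Slc1a4 were outside the list and named after their values were seen. Atf5 had 129, 84.0, 106 and 84.6 in the 541 hearts, against 38.5, 57.1, 31.9 and 47.2 in the 569 and 570 hearts (log2 difference 0.97 ± 0.18, adjusted p = 0.0305), and Slc1a4, a transporter of alanine, serine and cysteine, had 2068, 1767, 1902 and 1814 in the 541 hearts, against 958, 1399.9, 1314 and 1059.6 in the 569 and 570 hearts (log2 difference 0.68 ± 0.13, adjusted p = 0.0286). The list median was 0.08 without WT 541 L5, with 6 calls higher and 2 lower. It was 0.38 to 0.56 without any 1 of the other hearts, with 2 calls higher without WT 541 L3 or KO 569 R4 and 0 without any 1 of the remaining 5.

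The Asns window is shown because it holds the letters that ATF4 with C/EBP partners recognise. It lies at chr6:7693210-7693459 (minus strand, GRCm38.p6, RefSeq), and capitals mark the match to TGATGNAA, 23 bases before the start.
Asns: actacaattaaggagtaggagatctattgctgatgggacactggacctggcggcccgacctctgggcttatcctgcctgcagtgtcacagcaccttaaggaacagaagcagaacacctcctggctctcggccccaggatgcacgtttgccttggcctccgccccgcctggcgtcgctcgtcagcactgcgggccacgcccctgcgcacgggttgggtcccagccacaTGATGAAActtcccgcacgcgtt
Searched on both strands, the motif was found in 3.45% of all windows, in 1 of the 4 called stress genes and in 6 of 20 tested stress genes. It was not in the windows of Atf4, Psat1 or Slc3a2.

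Stress genes of other kinds moved singly. Among 25 tested immediate early and heat shock genes, 1 was called higher and 2 lower. Of all tested genes, 1.8% were called higher and 1.6% lower. Hspa1b, the inducible Hsp70 chaperone, had 450.1, 236, 377 and 1961 in the 541 hearts, against 102, 83.2, 166 and 167 in the 569 and 570 hearts (log2 difference 1.97 ± 0.43, adjusted p = 0.0424). All 541 hearts lay above all others, and WT 541 L5 lay far above the remaining 541 hearts. The 3 tested probe sets of Hspa1b ranged from 0.44 to 1.97, and 1 of them was called. Hspb1, the small chaperone Hsp27, ran the other way at 429, 467, 244 and 473 in the 541 hearts, against 869, 861, 703 and 674 in the 569 and 570 hearts (log2 difference -0.95 ± 0.18, adjusted p = 0.0285), as did Jun (log2 difference -0.39 ± 0.09, adjusted p = 0.0445). Mt2, a metallothionein that binds zinc and copper, had 3832, 3185, 2645 and 2291 in the 541 hearts, against 597, 1918, 526 and 718 in the 569 and 570 hearts (log2 difference 1.83 ± 0.29, adjusted p = 0.0197). It did not overlap. Mt1, its neighbour, named after its values were seen, had 4038, 4275, 3796 and 2497 in the 541 hearts, against 1307, 2732, 561 and 1052 in the 569 and 570 hearts (log2 difference 1.55 ± 0.28, adjusted p = 0.0271). In both, KO 569 R4 was the highest of the other hearts, as for the red cell genes. Txnip, which binds thioredoxin and limits glucose uptake, had the largest difference of the genes called lower, at 93.3, 130.3, 278 and 353 in the 541 hearts, against 427, 558, 638 and 948 in the 569 and 570 hearts (log2 difference -1.63 ± 0.21, adjusted p = 0.0129). Its second tested probe set differed by -0.39 and was not called.

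Hypoxia-induced genes gave 0 calls among 22 (median 0.24, 5 with an unadjusted p under 0.05, all higher). Without WT 541 L5 the median was -0.06, with 1 call higher and 4 lower. With the actin control ratio described below as a covariate, it was 1.01 with 12 calls higher. The hypoxia list level was 1.19 in WT 541 L5 and -0.32 to -0.03 in the other 7 hearts. Ndrg1, a hypoxia-induced gene, had 172, 133, 198 and 825 in the 541 hearts, against 91.3, 82.2, 72.6 and 52.7 in the 569 and 570 hearts (adjusted p = 0.08). Vegfa, the vascular growth factor, had 125, 153, 221 and 866 in the 541 hearts, against 193, 168, 102 and 191 in the 569 and 570 hearts (adjusted p = 0.495), and Fos, an immediate early gene, had 271, 308, 416 and 2631 in the 541 hearts, against 369, 267, 174 and 643 in the 569 and 570 hearts (adjusted p = 0.507). WT 541 L5 alone was high for Vegfa and Fos. Ribosomal protein genes gave 1 call among 44, Rplp0, at 3783, 3367, 3277 and 2785 in the 541 hearts, against 2696, 2124, 2078 and 1935 in the 569 and 570 hearts (log2 difference 0.58 ± 0.09, adjusted p = 0.0193). Of the 44, 40 were positive with a median of 0.10, against 48.3% positive and 1.8% called higher over all tested genes. Leaving out WT 541 L5 gave 10 ribosomal calls higher. Cell cycle genes gave 0 calls among 50 (median 0.12). Of the 50, 6 were higher and 4 lower at an unadjusted p under 0.05, against 10.6% and 12.1% of all tested genes. The cell cycle median was 0.01 with median centring. Without WT 541 L5 there were 12 cell cycle calls higher and 1 lower, against 1426 and 1603 of all 16292 tested probe sets. Mki67, the proliferation marker, had 2585, 2012, 1762 and 1433 in the 541 hearts, against 1093, 1447, 1268 and 1244 in the 569 and 570 hearts (adjusted p = 0.0563). Among 11 catecholamine and adrenergic genes, Ddc, which makes dopamine, was the 1 call: it had 295, 256, 237 and 200 in the 541 hearts, against 434, 462, 435 and 365 in the 569 and 570 hearts (log2 difference -0.75 ± 0.13, adjusted p = 0.0246). Of all tested genes, 1.6% were called lower.

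Marker genes of neighbouring tissues were uneven between the hearts. Of 8 tested neural crest genes 0 were called (median 1.01), of 12 foregut and pharyngeal genes 0 (median 0.73), and of 17 neural tube genes 0 (median 0.10). At an unadjusted p under 0.05, 2 crest genes and 4 foregut genes were higher. At such a p, 4 neural tube genes were higher and 1 lower, against 10.6% and 12.1% of all tested genes. Leaving out WT 541 L5 gave 4 calls higher for crest, 8 higher and 1 lower for foregut and 2 higher for neural tube. That fit called 1426 of all 16292 tested probe sets higher and 1603 lower. The deposited signals gave 5, 5 and 3 calls higher for crest, foregut and neural tube. Crabp1, a retinoic acid binding protein of crest and hindbrain, had 985, 1360.3, 1246 and 17.4 in the 541 hearts, against 42.7, 96.6, 167 and 111 in the 569 and 570 hearts (adjusted p = 0.258). Pax3, of dorsal neural tube and crest, had 115, 103, 192 and 12.4 in the 541 hearts, against 13.6, 19.8, 1.02 and 5.17 in the 569 and 570 hearts (adjusted p = 0.0561). Cldn6, an embryonic epithelial claudin, had 745, 669, 469 and 9.5 in the 541 hearts, against 3.93, 88.0, 144 and 82.9 in the 569 and 570 hearts (adjusted p = 0.322). The high values lay in KO 541 L1, KO 541 L2 and WT 541 L3, and WT 541 L5 was within or below the range of the 569 and 570 hearts. The crest list level was 0.94, 1.23, 0.71 and -1.07 in the 541 hearts, against -0.84, -0.20, -0.44 and -0.34 in the 569 and 570 hearts. For foregut it was 0.92, 0.94, 0.59 and -0.81 in the 541 hearts, against -0.89, -0.31, -0.19 and -0.26 in the others. The crest markers Sox10 and Foxd3 were called Present on 2 and 0 arrays.

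Hox genes, which mark position along the body axis, gave 2 calls higher and 0 lower among 15 tested, against 1.8% of all tested genes called higher, with a median of 0.96 and 10 at an unadjusted p under 0.05. Hoxb1, of the hindbrain and posterior second heart field, had 30.8, 55.8, 35.4 and 15.3 in the 541 hearts, against 13.3, 4.27, 1.22 and 1.18 in the 569 and 570 hearts (log2 difference 1.24 ± 0.22, adjusted p = 0.0252). It did not overlap. Hoxa3, of the third pharyngeal arch, had 345, 402, 382 and 114 in the 541 hearts, against 44.6, 131, 65.9 and 83.7 in the 569 and 570 hearts (log2 difference 1.69 ± 0.37, adjusted p = 0.0439). WT 541 L5 lay below KO 569 R4. Hoxc4 had 453, 475, 812 and 83.6 in the 541 hearts, against 45.6, 63.1, 93.3 and 54.7 in the 569 and 570 hearts (adjusted p = 0.0554) and Hoxb5 had 101, 204, 109 and 2.24 in the 541 hearts, against 1.71, 8.83, 23.7 and 2.24 in the 569 and 570 hearts (adjusted p = 0.115). Without WT 541 L5, 11 Hox genes were called higher, and 0 without any 1 of the other hearts. With the deposited signals 9 were. Lbx1, a factor of migrating limb muscle precursors and dorsal neurons, had 116, 105, 187 and 30.2 in the 541 hearts, against 0.49, 20, 1.82 and 3.2 in the 569 and 570 hearts. It was called Present in 4 of 4 541 hearts and in 1 of 4 others, and it was higher (log2 difference 2.39 ± 0.41, adjusted p = 0.0241). Dlx3, a homeobox gene of epithelium and placenta, had 45.6, 73.2, 51.6 and 67.0 in the 541 hearts, against 12.4, 11.2, 10.9 and 13.9 in the 569 and 570 hearts. Called Present in 4 of 4 541 hearts and in 0 of 4 others, it was at least 2.65-fold higher (adjusted p = 0.0113), counting an absent signal as no lower than the dimmest Present one on its array. Gjb2, connexin 26 of epithelia, had 108, 112, 75.8 and 7.83 in the 541 hearts, against 0.54, 4.52, 3.26 and 1.06 in the 569 and 570 hearts. On the same basis it was at least 3.75-fold higher (adjusted p = 0.0334), Present in 3 of 4 541 hearts and in 0 of 4 others.

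Liver genes had high values in a single heart. Of 10 tested, 0 were called (median 1.43, 0.16 without WT 541 L3, 1 with an unadjusted p under 0.05), and with the deposited signals 8 of the 10 were called higher. Afp, alpha-fetoprotein, had 7.56, 6.45, 3255 and 36.8 in the 541 hearts, against 37.1, 21.5, 0.75 and 4.61 in the 569 and 570 hearts (adjusted p = 0.468). Ttr, transthyretin, had 16.5, 35.0, 1907 and 21.6 in the 541 hearts, against 21.8, 40.9, 12.3 and 16.8 in the 569 and 570 hearts (adjusted p = 0.46). Hnf4a, a hepatocyte and endoderm factor, had 3.56, 9.11, 871 and 17.1 in the 541 hearts, against 11.9, 10.8, 0.79 and 6.87 in the 569 and 570 hearts (adjusted p = 0.425). The list level was 3.85 in WT 541 L3 and -0.70 to -0.32 in the other 7 hearts. The same heart had the low values of Myh7, Pln and Irx4 given above. The part of these levels of neighbouring tissue genes in the blood and muscle differences was not tested. With the summed crest, branchial and neural level as a covariate 132 probe sets were called, and with the liver level 42. For the sarcomere list the 2 covariates left medians of -0.34 and -0.43, and for the red cell list medians of 0.63 and 0.75. With the red cell level itself as the covariate 0 calls were left, with 405 probe sets at an unadjusted p under 0.05.

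**Figure D4:**
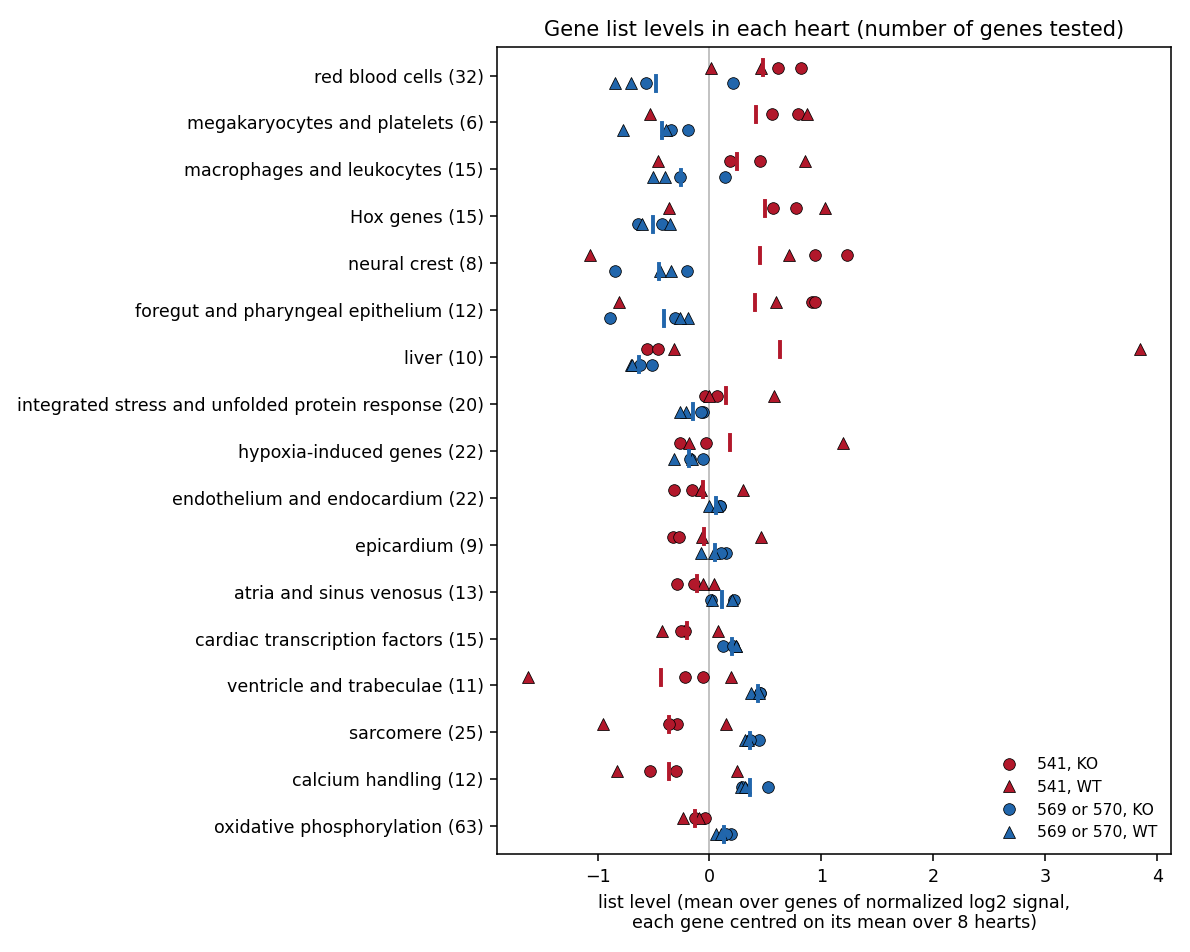
Level of 17 gene lists in each heart, as the mean over the list's tested genes of the normalized log2 signal after centring each gene on its mean over 8 hearts, with the number of genes in brackets. Red marks 541 hearts and blue 569 and 570 hearts, circles KO and triangles WT, and vertical bars the group means. WT 541 L3 lies at 3.85 for liver and -1.62 for ventricle, and WT 541 L5 at 1.19 for hypoxia and -1.07 for neural crest.

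The actin and Gapdh 5' to 3' ratios of the deposited quality sheet, which fall when labelled copies are short or RNA is broken, ran lower in the same 3 hearts. The actin ratio was 0.39, 0.401, 0.407 and 0.517 in the 541 hearts, against 0.51, 0.493, 0.483 and 0.527 in the 569 and 570 hearts. The mean was 0.429 ± 0.0593 for the 541 hearts and 0.503 ± 0.0194 for the 569 and 570 hearts (SD, n = 4 each). An exact permutation test, two-sided, gave p = 0.114. For Gapdh the ratio was 0.686, 0.702, 0.694 and 0.765 in the 541 hearts, against 0.724, 0.754, 0.756 and 0.775 in the others. Here the mean was 0.712 ± 0.0361 for the 541 hearts and 0.752 ± 0.0211 for the 569 and 570 hearts (SD, n = 4 each), with the same exact permutation p of 0.114. The adjusted p over 10 array measures was 0.457 for both, and the smallest p that 4 against 4 allows is 0.0286. WT 541 L5 had the ratios of the 569 and 570 hearts. The same ratios taken from the array signals ran differently. For actin they were 0.302, 0.304, 0.32 and 0.368 in the 541 hearts, against 0.296, 0.325, 0.329 and 0.381 in the others, with KO 569 R2 lowest (exact permutation p = 0.629). For Gapdh they were 0.698, 0.695, 0.659 and 0.755 in the 541 hearts, against 0.703, 0.736, 0.732 and 0.776 in the others (exact permutation p = 0.229). With the sheet's Gapdh ratio as a covariate 1 probe set was called, and with the actin ratio 357, of which 104 were among the 501. The red cell median was 0.80 with the Gapdh ratio and 0.62 with the actin ratio, while the sarcomere median was -0.20 and -0.15. The red cell list had 0 calls with the Gapdh ratio and 2 with the actin ratio, and the sarcomere list 0 with either. For both ratios, WT 541 L5 was the only 541 heart inside the range of the 569 and 570 hearts, so these fits lean on that heart. The part of the ratios in the differences was not tested beyond these fits.

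**Figure D5:**
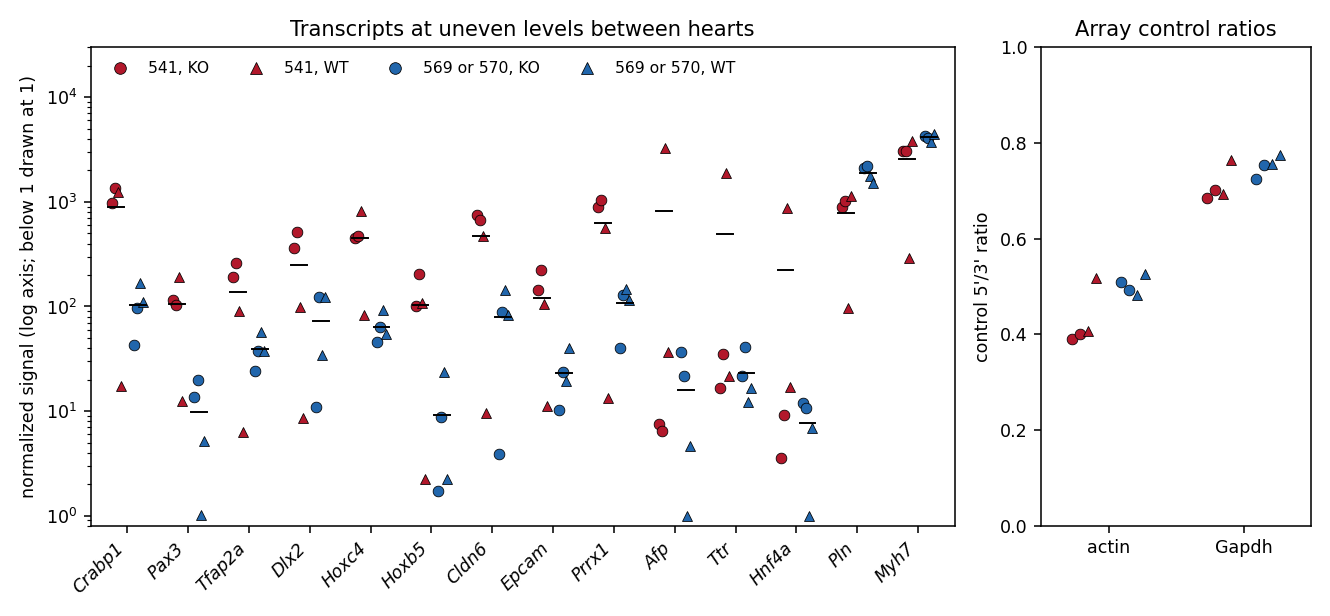
Left, normalized signal (log axis, values under 1 drawn at 1) of 14 transcripts of neighbouring tissues and of ventricle in each heart, with bars at the group means. Right, the actin and Gapdh 5'/3' ratios of each array. KO 541 L1, KO 541 L2 and WT 541 L3 are high for crest and pharyngeal genes and have actin ratios of 0.39 to 0.407, and WT 541 L3 alone is high for Afp, Ttr and Hnf4a.

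Several of the most strongly called genes belonged to none of these lists. Hnrnpdl, an RNA-binding protein of splicing, had 2577, 2634, 2725 and 2705 in the 541 hearts, against 1644, 1769, 1692 and 1857 in the 569 and 570 hearts (log2 difference 0.61 ± 0.07, adjusted p = 0.0113). Of its 6 tested probe sets 4 had the same sign, ranging from -0.30 to 0.70. Clk4, a kinase of splicing factors, had 924, 883, 975 and 965 in the 541 hearts, against 464, 463, 505 and 636 in the 569 and 570 hearts (log2 difference 0.85 ± 0.11, adjusted p = 0.0129). Msl2, a ubiquitin ligase of the complex that acetylates histone H4, had 2094, 1872, 1831 and 1833 in the 541 hearts, against 1109, 1182, 1192 and 1217 in the 569 and 570 hearts (log2 difference 0.69 ± 0.08, adjusted p = 0.0113). Mtf2, a partner of Polycomb complex 2, had 1783, 1826, 1652 and 1413 in the 541 hearts, against 889, 887, 1052 and 962 in the 569 and 570 hearts (log2 difference 0.80 ± 0.11, adjusted p = 0.0142). These 4 genes were separate between the sides, and WT 541 L5 lay with the other 541 hearts. The 3 tested probe sets of Msl2 ranged from 0.12 to 0.69 and the 4 of Mtf2 from 0.19 to 0.80, with 1 called for each gene. Akap8, a nuclear anchoring protein, had 1395, 1413, 1562 and 2066 in the 541 hearts, against 888, 887, 836 and 912 in the 569 and 570 hearts (log2 difference 0.84 ± 0.12, adjusted p = 0.0157), but its second probe set differed by -0.22. A probe set of Hspa8 that is not its brightest had the smallest p of all: 1431182_at, named after its values were seen, had 184, 213, 333 and 338 in the 541 hearts, against 49.1, 39.8, 68.2 and 66.8 in the 569 and 570 hearts (log2 difference 1.95 ± 0.14, adjusted p = 0.00105). The brightest Hspa8 probe set had 4547, 4281, 4819.7 and 4488 in the 541 hearts, against 4908, 4652, 4524 and 4628 in the 569 and 570 hearts and a difference of -0.05. Aqp4, a water channel, had 94.3, 78.6, 69.7 and 86.2 in the 541 hearts, against 309, 212, 260.3 and 233 in the 569 and 570 hearts (log2 difference -1.45 ± 0.16, adjusted p = 0.0113). Ppp1r1a, an inhibitor of protein phosphatase 1, had 67.8, 88.5, 71.5 and 95.7 in the 541 hearts, against 249, 221, 218 and 192 in the 569 and 570 hearts (log2 difference -1.29 ± 0.15, adjusted p = 0.0126). Both were lower in every 541 heart. Of 141 called genes with more than 1 tested probe set, 26 had a probe set of opposite sign.

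The 2 widest differences had hearts at very different levels within 1 side. Ctr9, a subunit of the PAF1 transcription complex, had 2797, 1526, 2339 and 1213 in the 541 hearts, against 20.1, 14.4, 1458 and 33.4 in the 569 and 570 hearts. WT 569 R3 was as high as the 541 hearts and the other 3 lay between 14.4 and 33.4, so the groups overlapped while the difference passed (log2 difference 4.31 ± 0.97, adjusted p = 0.0461). Its 4 tested probe sets ranged from 0.09 to 4.31. B3galt6, a galactosyltransferase of glycosaminoglycan linkers, had 427, 574, 616 and 472 in the 541 hearts, against 285, 21.7, 13.2 and 20.4 in the 569 and 570 hearts. KO 569 R2 lay between the high and the low values (log2 difference 3.18 ± 0.58, adjusted p = 0.0276).

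Whether the difference between the title numbers was itself different in KO and WT hearts was tested with an interaction term. It called 1 of 16292 probe sets (0.00614%), and 1155 (7.09%) had an unadjusted p under 0.05. Without WT 541 L3 it called 847, without WT 541 L5 36, and without any 1 of the other 6 hearts 0. The called probe set, 1418357_at, which carries no gene symbol in the annotation used here, had 278, 314, 17.3 and 12.6 in the 541 hearts, against 1.02, 0.44, 0.43 and 2.11 in the 569 and 570 hearts. The difference was 4.22 within KO hearts and 0.84 within WT hearts on the log2 scale, which differ by 3.38 (adjusted p = 0.0155). It was thus high in KO 541 L1 and KO 541 L2. Within the KO hearts alone the title number gave 1669 calls and within the WT hearts alone 1, with only 2 hearts on each side. For Gata1 the difference was 1.67 within KO and 1.99 within WT hearts, for Alas2 2.10 and 2.52, for Tnni1 -1.03 and -1.13, and for Atf4 0.73 and 1.24.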

How the data were processed

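RNA from 8 mouse hearts, 1 array each, was measured on Affymetrix 430A 2.0 arrays. The deposited intensity values are linear MAS5 signals with detection calls, per the file headers; version, scaling target and genome build are not given in the sources used here. A deposited quality sheet lists, per the file headers, the fraction Present of each array and the 5' to 3' ratio of 2 control transcripts.

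Signals were taken as log2(signal + 16) and quantile normalized. Probe sets called Present on at least 3 arrays were kept (16292 of 22690; control probe sets left out). Differences were fitted with limma 3.58.1 (R 4.3.3, intensity trend), title number plus genotype, with Benjamini-Hochberg adjustment over all tested probe sets and calls at 0.05. There were 5 residual and 4.91 prior degrees of freedom, and the 95% interval reached a median of 0.37 (log2) to either side. The number of arrays limits the precision. On simulated data of this comparison (16292 probe sets), 342 of 500 changes of size 1 and 481 of 500 of size 2 were called. There were 42 false calls over 5 simulations. These counts hold for simulated data only. In the real data, calls ranged from 1 to 3029 when 1 heart was left out. The simulated noise was drawn separately for each probe set and heart, so it held no deviation shared across the genes of 1 heart. The simulation thus gives no rate of recovered or false calls for the real hearts. Array measures were compared by exact permutation over 70 assignments, without regard to genotype.

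Symbols came from the platform annotation, updated by gene identifier (20393 probe sets with 1 symbol, 691 with several, 1606 with none). The brightest tested probe set stands for a gene. Named were the 15 genes with the largest difference and the 10 with the smallest p among calls in each direction, and for each list the 4 members with the smallest p and the 2 brightest, with further genes marked as chosen after their values were seen. Those described are taken from these. The gene lists were written, and their members chosen, with earlier results of these data known, and no p is given over a list. Alternatives were 3 normalizations, 3 pseudocounts, 3 detection filters, the variance model, each genotype alone, 5 covariates and leaving out each heart. The authors' own comparison of genotypes was not used here.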

Additional observations from a re-analysis of the deposited data

Results flagged for a closer look

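In 13 of 138 groups of 4 hearts examined, 1 heart lay far from the other 3 by Dixon's 95% criterion, which chance exceeds in about 1 group in 20. WT 541 L3 stood apart among the 541 hearts with list levels of 3.85 for liver (the other 3 from -0.56 to -0.32) and 2.28 for visceral yolk sac endoderm (the other 3 from -0.45 to -0.20). The same heart had a normalized log2 signal of 6.45 for Des (the others 7.44 to 7.57) and of 6.92 for Cited1 (the others 8.08 to 8.23). WT 541 L5 stood apart with list levels of 1.19 for hypoxia-induced genes (the others -0.26 to -0.03), 0.68 for immediate early and heat shock genes (the others -0.20 to -0.07) and 0.58 for the stress and unfolded protein response (the others -0.04 to 0.07). It also had a normalized log2 signal of 7.02 for Hoxa3 (the others 8.5 to 8.71) and an actin 5' to 3' ratio of 0.517 (the others 0.39 to 0.41).

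Among the 569 and 570 hearts, WT 569 R3 had a normalized log2 signal of 10.53 for Ctr9 (the others 4.93 to 5.63) and a ribosomal protein list level of -0.03 (the others -0.07). KO 569 R2 had 8.23 for B3galt6 (the others 4.87 to 5.24), and WT 570 R2 had 12.37 for Myh6 (the others 12.12 to 12.16).

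The difference between the title numbers itself differed between genotypes for probe set 1418357_at: it was 4.22 within KO hearts and 0.84 within WT hearts, which differ by 3.38 on the log2 scale (interaction term, limma, adjusted p = 0.0155).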

How the results depend on the processing

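The titles end in a digit, and 2 digits occur on both sides, but the labels do not say that a digit marks a shared litter or day. Deviations of same-digit hearts across the sides correlated at -0.01, 0.02 and 0.14. With the digit as a replicate block, added after seeing the data and leaving 1 residual degree of freedom, there were 1250 calls. The 501 calls became 292 with no detection filter, 216 without the intensity trend, 0 with an unequal-variance test per probe set (2746 at an unadjusted p under 0.05), 1669 in KO hearts alone, 1 in WT hearts alone, 1 with the Gapdh ratio, 132 with the crest, neural and branchial level, 42 with the liver level and 0 with the red cell level as a covariate. Leaving out 1 heart gave 1 to 3029 calls. The single call of the interaction became 70 with deposited signals, 0 with median centring and 0 to 847 without 1 heart. Among the list medians that moved were the following. With the Gapdh ratio as covariate they were -0.02 for macrophages, -0.44 for liver, 0.16 for neural crest, 0.36 for Hox genes, -0.16 for ventricle and -0.20 for sarcomere. With the actin ratio they were -0.14 for foregut, -0.29 for neural crest, -0.05 for branchial muscle, 0.46 for Hox genes, -0.15 for ventricle, -0.15 for sarcomere and -0.22 for placenta. With the red cell level they were -0.00 for red cells by construction, -0.56 for macrophages, -1.28 for liver, -0.21 for neural crest, 0.17 for Hox genes, 0.11 for atria, 0.10 for ventricle, -0.10 for sarcomere and 0.11 for calcium handling, and Hoxa3 stood at -0.09. With the crest, neural and branchial level they were -0.19 for neural crest by construction, -0.34 for sarcomere and -0.03 for placenta. Hypoxia-induced genes stood at 0.81 with the Gapdh ratio, 1.01 with the actin ratio (12 calls higher) and 0.83 with the crest, neural and branchial level (5 higher). With the Gapdh and actin ratios, calcium handling stood at -0.24 and -0.16, and cardiac transcription factors at -0.17 and -0.18. With Present calls required on all 8 arrays, fewer genes were tested, and medians were -0.25 for neural crest and -0.40 for branchial muscle. With no filter, placenta was at -0.02. Hox genes were at 1.85 with a pseudocount of 1 and 0.44 with 64. Oxidative phosphorylation was at -0.33 with deposited signals and -0.31 with median centring. Leaving out 1 heart moved the stress response median between 0.08 and 0.56. Of 36 named genes tried under these settings, Hoxa3 alone changed direction, and only with the red cell level. With the Gapdh ratio, the unequal-variance test or KO 541 L2 left out, all 36 had weaker evidence or a smaller difference. So did 35 with the red cell level or with KO 569 R2 left out. Unless construction is named, the cause was not tested. Precision is limited by 4 arrays a side, and spread among title numbers could not be measured.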
